A study of Mus musculus with 9 samples.

Results

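Adgrv1, Adgrf1, Srgap3, Fam183b, Slc22a29, Mmd2, Atp12a and Eif4ebp3 are 8 protein-coding genes with few described roles in liver, picked out of the 17655 features tested. They were chosen by their array signals, which differed between fat-fed livers and livers from mice fed fat with Astragalus polysaccharides. The arrays carry 16 probes for them under gene names, older names or accessions, and the brightest detected probe stood for each gene. All 8 genes had a probe that was well above background on at least 3 of the 9 arrays, the level needed to be tested. The differences of HFD+APS against HFD and of HFD against chow chose these genes, so their values and calls in those comparisons are given as a description and not as a test.

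The study measured liver RNA of male C57bl/6J mice aged 16 weeks, after 12 weeks on 1 of 3 diets, on 1-colour Agilent arrays. The HFD+APS mice ate a fat-rich diet (60 kcal% from fat) into which Astragalus polysaccharides (APS), sugar polymers of a medicinal root, were mixed at 40 g per kg. The HFD mice ate the fat-rich diet alone, and the chow mice ate ordinary food. Each group held 3 livers with 1 array each, picked out of 24 mice by the look of stained sections and by triglyceride results, so a p-value measures the spread between selected livers.

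The 8 genes belong to unrelated families. Adhesion G protein-coupled receptors carry long extracellular parts that bind neighbouring cells or matrix. Adgrv1 is a very large member that links the stereocilia of hair cells and is mutated in a form of Usher syndrome, a disorder of hearing and sight, while Adgrf1, formerly Gpr110, responds in neurons to a lipid made from docosahexaenoic acid. Srgap3 switches off the small GTPase Rac and bends membranes, and srGAP proteins are known as partners of the Robo receptors for Slit. Fam183b is linked to motile cilia, which hepatocytes lack. Slc22a29 belongs to the Slc22 carriers of organic anions and cations, and Atp12a is the catalytic subunit of a proton and potassium pump best known from colon and kidney. Mmd2 sits in the Golgi membrane and is a distant relative of the adiponectin receptors (the PAQR family). Eif4ebp3 binds the cap-binding factor eIF4E and so restrains translation, like its relatives Eif4ebp1 and Eif4ebp2, which the kinase complex mTORC1 controls.

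The positions of the probes that stand for each gene are those in the arrays' mm9 annotation. Adgrv1 was read on chromosome 13 from 81234330 to 81234389, Srgap3 on chromosome 6 from 112668239 to 112668298 and Fam183b on chromosome 11 from 58606339 to 58606398. Slc22a29 was read on chromosome 19 from 8234836 to 8234895 and Mmd2 on chromosome 5 from 143039928 to 143039987. Whether these probes lie in coding or untranslated exon was not determined. The probes of Adgrf1 (chromosome 17, 43451421 to 43458149) and Atp12a (chromosome 14, 57005794 to 57006021) have 60 bases but span 6729 and 228 bases of the genome, so their bases come from separate stretches of it. Their sequences are printed because all values of these 2 genes rest on them.
Adgrf1 probe: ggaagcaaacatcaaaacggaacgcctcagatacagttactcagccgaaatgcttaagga
Atp12a probe: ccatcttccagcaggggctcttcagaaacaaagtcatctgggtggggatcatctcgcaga

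Promoter windows of 300 bases, from 250 bases before to 50 bases after a transcript start, were taken from RefSeq (GRCm38.p6) for 6 of the 8 genes and searched on both strands. The search covered TATAAA (a core promoter element), CCAAT (the box bound by NF-Y), GGGCGG (GC box), CACGTG (E-box), TTCNNNGAA (STAT5 site), AGGTCA (a nuclear receptor site) and GTTGCC (a part of the X-box that RFX factors of cilia genes bind). Fam183b held GTTGCC at 67 and 16 bases before its start and CCAAT, read on the other strand, at 175 bases before it. GTTGCC occurred in 12.5% of 32851 windows of 27025 genes, and CCAAT in 37.4%. Mmd2 also held GTTGCC, read on the other strand at 9 bases after its start, so 2 of the 6 windows had it. Mmd2 further held CCAAT at 106 bases before its start and GGGCGG 3 times. Adgrv1 held CCAAT at 64 and AGGTCA at 237 bases before its start. Srgap3 held TATAAA at 72 bases (13.6% of windows) and GGGCGG at 40 bases (35.7%), and Adgrf1 held GGGCGG at 94 bases. The 4 windows printed here are those of 2 genes with low signal in HFD, Adgrf1 and Srgap3, and of 2 with high signal in HFD, Fam183b and Slc22a29, and capitals mark every match of the searched letters.
Adgrf1 promoter (chr17:43270097-43270396, plus strand): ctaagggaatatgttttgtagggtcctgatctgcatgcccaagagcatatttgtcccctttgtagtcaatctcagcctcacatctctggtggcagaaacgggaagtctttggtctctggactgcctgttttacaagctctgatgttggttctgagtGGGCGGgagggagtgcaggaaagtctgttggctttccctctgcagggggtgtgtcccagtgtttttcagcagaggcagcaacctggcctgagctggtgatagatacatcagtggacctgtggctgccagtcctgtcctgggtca
Srgap3 promoter (chr6:112947217-112947516, minus strand): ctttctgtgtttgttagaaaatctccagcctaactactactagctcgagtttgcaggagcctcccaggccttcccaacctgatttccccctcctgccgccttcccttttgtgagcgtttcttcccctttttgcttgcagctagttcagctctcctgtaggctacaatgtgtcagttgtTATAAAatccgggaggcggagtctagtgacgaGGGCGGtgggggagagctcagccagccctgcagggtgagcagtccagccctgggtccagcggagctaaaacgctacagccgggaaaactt
Fam183b promoter (chr11:58801911-58802210, minus strand): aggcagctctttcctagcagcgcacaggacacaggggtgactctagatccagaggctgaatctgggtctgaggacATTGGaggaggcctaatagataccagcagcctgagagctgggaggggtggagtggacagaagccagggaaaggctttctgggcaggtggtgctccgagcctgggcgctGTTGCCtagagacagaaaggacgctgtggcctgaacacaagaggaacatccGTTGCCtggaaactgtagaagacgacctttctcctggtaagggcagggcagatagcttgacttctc
Slc22a29 promoter (chr19:8218851-8219150, minus strand): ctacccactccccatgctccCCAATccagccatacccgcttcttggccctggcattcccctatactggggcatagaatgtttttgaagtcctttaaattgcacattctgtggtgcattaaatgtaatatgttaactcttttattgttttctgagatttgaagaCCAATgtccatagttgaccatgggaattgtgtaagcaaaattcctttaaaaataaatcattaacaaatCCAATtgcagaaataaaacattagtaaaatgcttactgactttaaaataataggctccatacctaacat
The Slc22a29 window held CCAAT 3 times, at 230, 87 and 19 bases before the start, and lies inside the gene's annotated span (8160168 to 8253375 on chromosome 19). The Fam183b window also lies inside its gene (58783892 to 58802221 on chromosome 11), and most of the Srgap3 window lies inside Srgap3, which ends at 112947505. Bases are counted from the transcript start of each window, so the matches in these windows lie within the annotated genes. The genes did not share a searched motif in all 4 windows, and a match or its lack is a description of these letters only.

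Signals were scaled by dividing each by the upper quartile (75th percentile) of all probes on its array, and are given as a percent of it, so that values compare arrays for 1 probe and not one gene with another. The upper quartile lay between 210 and 265 signal units over the 9 arrays. Call rates and background differed by slide: negative control spots read 55.0 to 61.6 on the slide that held HFD+APS 1 and the 3 HFD arrays, 37 to 40.4 on the slide of HFD+APS 2 and HFD+APS 3, and 41.6 to 42.4 on the chow slide. Neither HFD+APS nor HFD shared a slide with chow, so diet and slide cannot be told apart in HFD+APS against chow or in HFD against chow. HFD+APS 1 shared its slide with the 3 HFD arrays and lay above all of them for 4 of the 8 genes and below all of them for the other 4. The genes were chosen on HFD+APS against HFD, this array included, so its place outside HFD was set by that choice. In bulk liver, fewer cells of a type and less RNA per cell cannot be told apart.

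**Figure D1:**
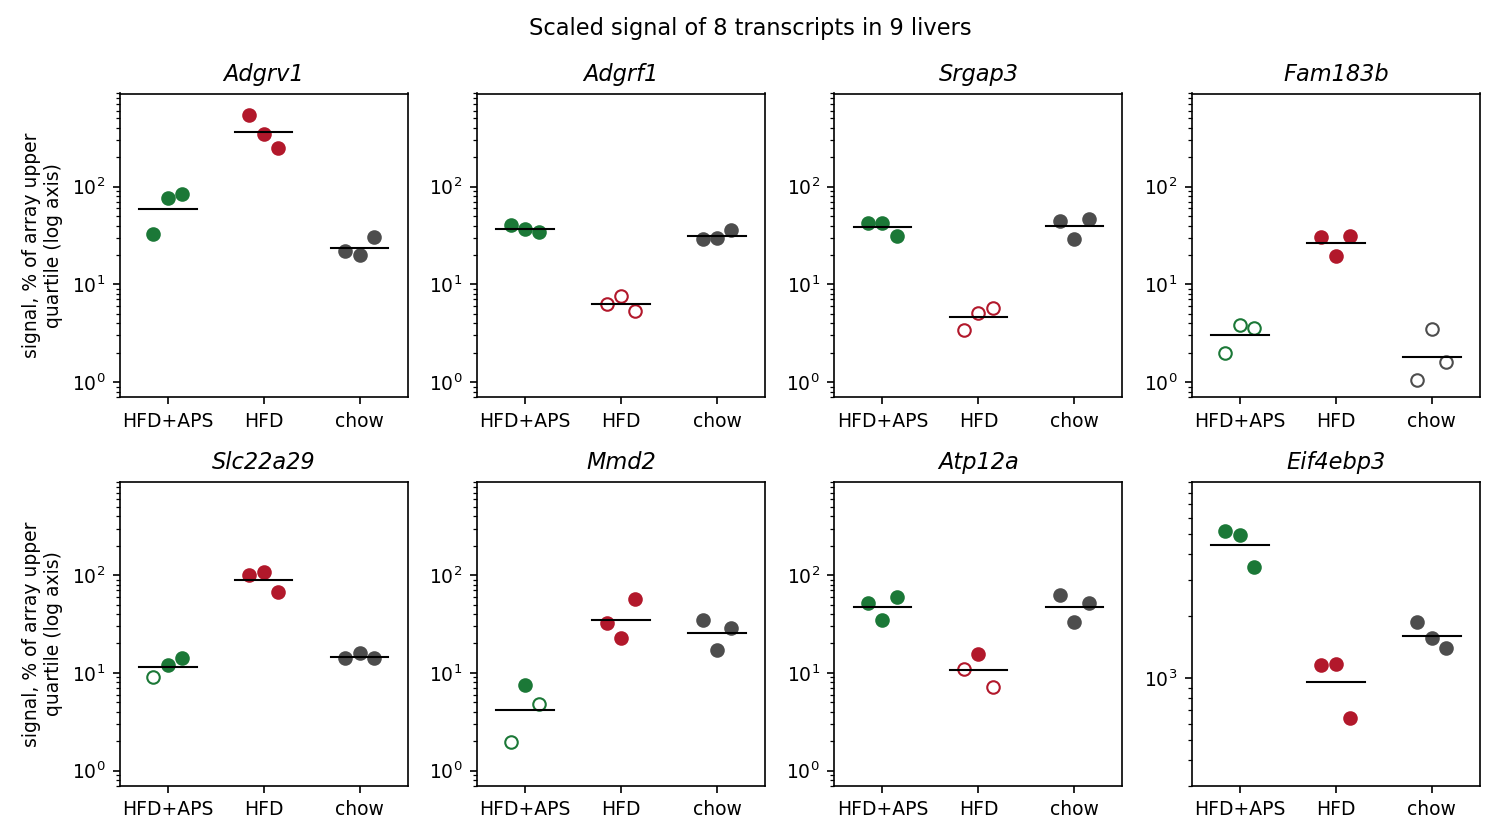
Scaled signal of the 8 genes on each array (percent of the array's upper quartile, log axis, with an axis of its own for Eif4ebp3), with a bar at the geometric mean of each diet group and open points for signals not well above background. Adgrf1, Srgap3 and Atp12a are lower in HFD than in both other groups, Adgrv1, Fam183b and Slc22a29 are higher in HFD, Mmd2 is lower in HFD+APS than in both others and Eif4ebp3 is higher in HFD+APS than in both others.

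Between HFD+APS and HFD, the 3 arrays of one group lay wholly above or below the 3 of the other for each of the 8 genes. Over all features, HFD+APS lay wholly above HFD for 12.6% and wholly below it for 11.8%. All 8 genes also passed an adjusted p under 0.05 in limma, 4 higher and 4 lower. Of all features 1.44% passed (0.447% higher and 0.991% lower), and the count of 8 restates how the genes were chosen. Between HFD and chow 6 of the 8 passed the same threshold, 3 higher and 3 lower, beside 10.9% of all features (4.55% higher and 6.38% lower). That comparison also chose the genes, so its counts for them are no test either. For 7 of the 8 the HFD and chow arrays did not overlap, while HFD lay wholly above chow for 16.6% and wholly below it for 22.3% of all features. Passing in both comparisons with opposite signs, as the word reversed would ask, held for 6 of the 8 genes. It held over all features for 0.64% that were higher in HFD than in chow and lower in HFD+APS than in HFD, and for 0.357% with the opposite signs. Mmd2 and Eif4ebp3 did not show it: Mmd2 overlapped between HFD and chow, and Eif4ebp3 in HFD did not pass against chow.

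Among the receptors, Adgrv1 read 32.5, 75.7 and 84.6% of the upper quartile in HFD+APS, against 541, 345 and 251% in HFD and 22.2, 20.0 and 30.3% in chow. HFD stood above both other groups with no overlap, and the lowest HFD+APS array lay just above the highest chow array. The log2 difference was -2.60 ± 0.41 for HFD+APS minus HFD (SE), a signal 6.08-fold higher in HFD, and 3.92 ± 0.41 for HFD minus chow, or 15.1-fold. HFD+APS kept a log2 difference of 1.32 ± 0.41 from chow that did not pass (limma adjusted p = 0.101, 95% interval 0.38 to 2.25). It passed with array weights (adjusted p = 0.0145) and without HFD+APS 1, the lowest of its 3 arrays (log2 1.75, adjusted p = 0.0202). The difference of HFD+APS from chow was not used to choose the genes, but it shares all its arrays with the 2 that were and is not independent of them.

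Adgrv1 is read by 7 probes, ordered along the minus strand of the gene, and they did not behave alike. The most 3′ probe, the one used, was well above background on 9 arrays and the next, 175 kb further 5′, on 8. The other 5 probes, 386 to 482 kb from the first, were well above background on 0 to 2 arrays each. The second probe read 3.74, 13.0 and 16.9% in HFD+APS, against 84.5, 76.5 and 57.9% in HFD and 16.1, 11.5 and 8.97% in chow. HFD was again the high group without overlap, at -2.94 ± 0.52 for HFD+APS minus HFD and 2.60 ± 0.52 for HFD minus chow (log2). Its difference of HFD+APS minus chow was -0.34 ± 0.52, against 1.32 at the most 3′ probe, so the sign of that difference depends on the probe. With the mean of the detected probes it was 0.49. The gene spans 538324 bases (chromosome 13, 81095068 to 81633391, GRCm38.p6), and what separates the probes was not tested.

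**Figure D2:**
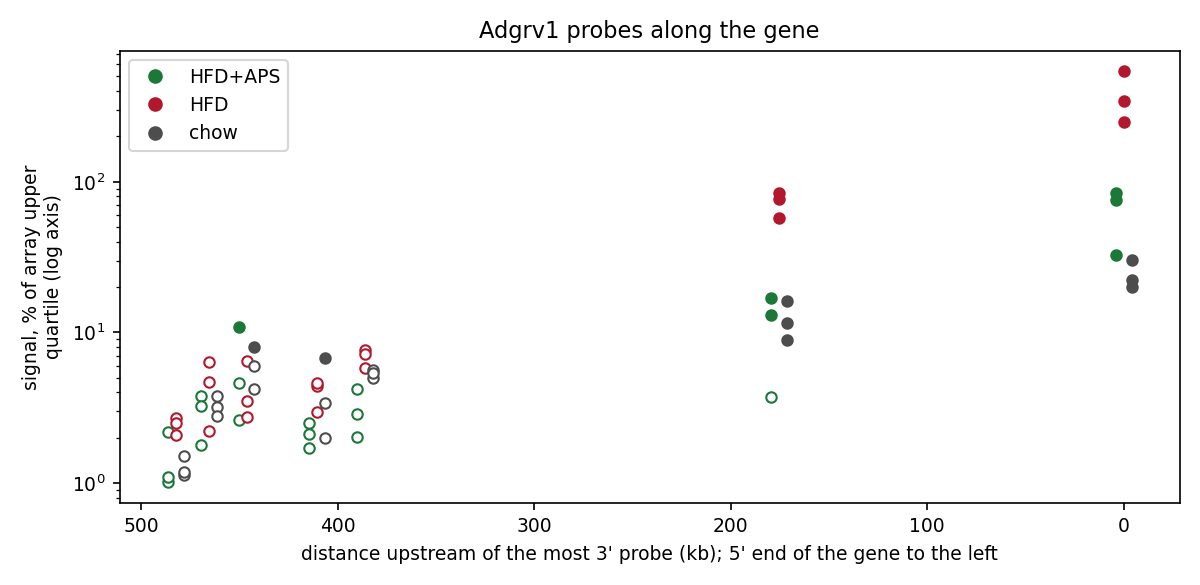
Scaled signal of the 7 Adgrv1 probes (percent of the array's upper quartile, log axis) against their distance in kb from the most 3′ probe, with the 5′ end to the left, colours for the 3 diets and open points for signals not well above background. Within a probe the diets are set slightly apart; HFD stands above both other groups at the 2 most 3′ probes, and the 5 probes nearer the 5′ end are almost all at background.

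Adgrf1 read 40.6, 36.9 and 34% in HFD+APS, against 6.28, 7.62 and 5.37% in HFD and 29.4, 29.7 and 35.9% in chow. No HFD array was well above background, and HFD lay below both other groups, which overlapped. By group means HFD+APS read 5.83-fold higher than HFD, and HFD 4.96-fold lower than chow. With no HFD signal well above background the sizes are uncertain, and these folds leave out the spread between arrays. The log2 95% intervals were 2.19 to 2.90 for HFD+APS minus HFD and -2.66 to -1.96 for HFD minus chow. Normexp background correction gave 0.95 for the former. It adds an offset of 50 signal units, which shrinks log2 differences of dim signals by construction. HFD+APS differed from chow by 0.23 ± 0.15 (log2, 95% interval -0.12 to 0.59, limma adjusted p = 0.381). On the slide shared with HFD, HFD+APS 1 gave a difference of 2.67 from the 3 HFD arrays. That value rests on a single HFD+APS array and belongs to the comparison that chose the gene.

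Of 27 other adhesion receptors 18 were tested. In HFD+APS minus HFD 0 of the 18 passed in limma, 6 had an unadjusted p under 0.05, and the median log2 difference was -0.20, where that of all features was 0.00. The share of all features at an unadjusted p under 0.05 was not counted, so such counts, here and below, cannot be read as an excess. Adgrf5, which lies 34453 bases from Adgrf1 on chromosome 17, had a log2 difference of 0.50 ± 0.21 for HFD+APS minus HFD and 0.07 ± 0.21 for HFD minus chow. Adgrb1, an adhesion receptor that takes part in clearing dead cells, fell in HFD relative to chow (-1.08 ± 0.21, limma adjusted p = 0.0223), a call lost without HFD 1, HFD 3, chow 2 or chow 3 (up to 0.0787), with slide as a random block and with normexp background correction. Among 10 Usher proteins and partners of Adgrv1, 4 were tested. Whrn (whirlin), the scaffold that binds Adgrv1 at the ankle links of stereocilia, read 16.3, 14.3 and 15.5% in HFD+APS, against 9.98, 9.55 and 8.21% in HFD and 45.2, 30.5 and 40.2% in chow. The 3 groups did not overlap, and HFD was lowest where Adgrv1 was highest. Whrn fell in HFD relative to chow (log2 -2.05 ± 0.16, adjusted p = 0.00119), a call that held in each of the 9 fits that left out 1 array. It also fell in HFD+APS relative to chow (-1.31 ± 0.16, adjusted p = 0.0122), a call lost without HFD+APS 2 or chow 3 (up to 0.0544) and with the mean of its detected probes. Ush1g, another scaffold of the list, fell in HFD relative to chow (-1.39 ± 0.25, adjusted p = 0.0183), a call lost without HFD 3, chow 1 or chow 3 (up to 0.0600) and with normexp. In HFD, Ush1g read 3.50, 3.51 and 2.65% and Adgrb1 5.46, 8.13 and 6.26%, near or below levels at which Adgrf1 was not well above background. The sizes of such falls are uncertain. Over the alternatives, normexp with its offset among them, HFD minus chow was as small as -0.25 for Ush1g, -0.24 for Adgrb1 and -0.86 for Whrn.

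Srgap3, the Rac regulator, read 42.1, 42.3 and 31.5% in HFD+APS, against 3.39, 5.09 and 5.67% in HFD and 44.4, 29.0 and 46.8% in chow. No HFD array was well above background, and the HFD+APS values lay within the range of chow. By group means, leaving out the spread between arrays, HFD+APS read 8.30-fold higher than HFD, and HFD 8.50-fold lower than chow. With no HFD signal well above background, these sizes are uncertain. The log2 95% intervals were 2.47 to 3.64 for HFD+APS minus HFD and -3.67 to -2.50 for HFD minus chow. Normexp background correction gave 0.96 for the former. HFD+APS minus chow was -0.03 ± 0.25 (log2, 95% interval -0.62 to 0.55, adjusted p = 0.950), so a difference of up to about 0.6 in either direction remains within the interval. A second Srgap3 probe, 3.984 kb further 5′, was well above background on 0 arrays and gave -0.17 ± 0.40 for HFD+APS minus HFD, so the values rest on the 3′ probe alone.

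In the list of Slit, Robo and srGAP genes 14 of 16 were tested. The closest relatives, Srgap1 (0.16 ± 0.19) and Srgap2 (-0.12 ± 0.12), did not pass in HFD+APS minus HFD. Slit1, a secreted Robo ligand, read 48.6, 46.7 and 58.8% in HFD+APS, against 30.8, 26.2 and 27.4% in HFD and 51.8, 50.9 and 38.5% in chow. It had the order of Srgap3 at a smaller size: it rose in HFD+APS relative to HFD (0.86 ± 0.15, adjusted p = 0.0391) and fell in HFD relative to chow (-0.73 ± 0.15, adjusted p = 0.0264). The rise lost its call in 7 of the 9 fits that left out 1 array, all but those without HFD+APS 1 or chow 3 (up to 0.117), and with slide as a random or a fixed block. The fall lost its call without HFD 2, HFD 3, chow 1 or chow 2 (up to 0.0870), and with slide as a random block. Both were also lost with normexp and with dim probes kept.

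Fam183b, the gene linked to cilia, read 1.97, 3.83 and 3.58% in HFD+APS, against 30.8, 19.3 and 31.0% in HFD and 1.04, 3.50 and 1.59% in chow. It was well above background only on the 3 HFD arrays, and the other 2 groups overlapped below background, so nothing is said of the difference between them. Fam183b thus entered the tests only through the group where it was high. By group means, leaving out the spread between arrays, HFD was at least 8.56-fold higher than HFD+APS and at least 14.2-fold higher than chow. The log2 95% intervals were -4.17 to -2.10 for HFD+APS minus HFD and 2.84 to 4.91 for HFD minus chow. Normexp background correction gave -0.84 for the former.

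Of 33 listed genes of motile cilia 15 were tested, and in HFD minus chow 1 passed as higher and 5 as lower (median 0.12, with 9 of 15 positive). Of all features 4.55% passed as higher and 6.38% as lower. Foxj1, the master regulator of motile cilia, read 9.63, 12.9 and 4.35% in HFD+APS, against 14.2, 12.0 and 11.1% in HFD and 8.54, 7.38 and 5.20% in chow, and did not pass in any comparison; the groups overlapped apart from HFD against chow. Cfap126, a basal body protein, rose in HFD (0.79 ± 0.12, adjusted p = 0.0128), while Rsph9, a radial spoke protein, fell (-1.14 ± 0.14, adjusted p = 0.00688), and both held without any 1 array. Tekt4, a tektin of the ciliary axoneme, and Lrrc23, a radial spoke protein, also fell in HFD (-0.81 and -2.30), and both calls were lost without chow 2, and that of Tekt4 also without chow 3 (adjusted p up to 0.0618). Lrrc23 read 2.79, 2.19 and 2.32% in HFD, as low as Fam183b signals that were not well above background. It read 2.23, 2.42 and 6.56% in HFD+APS. Its HFD minus chow difference was as small as -0.50 over the alternatives, normexp with its offset among them, so its size is uncertain. Rsph9 alone passed in HFD+APS minus HFD (0.76 ± 0.14, adjusted p = 0.0480), a call lost in each of the 9 fits that left out 1 array, with slide as a random or a fixed block, with normexp and with dim probes kept. In HFD+APS minus chow, Tekt4 (-0.65), Hydin (-2.46) and Lrrc23 (-1.86) fell, and leaving out HFD+APS 2 or any chow array ended each call (up to 0.151). Those of Tekt4 and Lrrc23 were also lost with slide as a random block, normexp, quantile normalization, the authors' table and dim probes kept. The summed signal of the 15 genes was 663 to 802% of the upper quartile in HFD+APS, 693 to 785% in HFD and 769 to 870% in chow. Most of it came from Dnaic1 and Cfap126, which went opposite ways. Dnaic1 read 201, 226 and 158% in HFD against 362, 447 and 317% in chow. Cfap126 read 335, 288 and 342% in HFD against 196, 168 and 194% in chow, so similar sums do not mean unchanged genes.

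Slc22a29, the carrier, read 9.12, 11.9 and 14.0% in HFD+APS, against 100.8, 107.4 and 67.9% in HFD and 14.1, 15.9 and 14.0% in chow. HFD stood far above both other groups, and the highest HFD+APS array came close to the lowest chow array without reaching it. HFD was 7.84-fold higher than HFD+APS (log2 -2.97 ± 0.21 for HFD+APS minus HFD) and 6.16-fold higher than chow (2.62 ± 0.21). HFD+APS minus chow was -0.35 ± 0.21 (95% interval -0.84 to 0.14, limma adjusted p = 0.349).

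Of 24 other Slc22 carriers 16 were tested, and in HFD+APS minus HFD 0 passed in limma, with 4 at an unadjusted p under 0.05. Slc22a26 read 14.7, 9.40 and 9.44% in HFD+APS, against 20.8, 18.2 and 24.1% in HFD and 16.6, 20.6 and 15.4% in chow, and did not pass (-0.94 ± 0.21). Slc22a28, whose gene lies 28186 bases from Slc22a29, had 0.32 ± 0.19 and Slc22a30 0.26 ± 0.22 in the same comparison, each from a probe whose accessions name both of these 2 genes. Slc22a27 was not analysed here. Slc22a7, a liver carrier of organic anions, rose in HFD relative to chow (1.73 ± 0.26, adjusted p = 0.0113) and in HFD+APS relative to chow (1.37 ± 0.26, adjusted p = 0.0349). The first call held in the 9 fits that left out 1 array, and the second was lost without HFD+APS 2, HFD+APS 3, HFD 2 or any chow array (up to 0.117), with slide as a random block and with dim probes kept. Slc22a12, a urate carrier, fell in HFD relative to chow (-0.63 ± 0.15, adjusted p = 0.0377), a call lost in 7 of the 9 such fits, all but those without HFD+APS 1 or HFD 1, with slide as a random block and with dim probes kept.

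Atp12a, the pump subunit, read 51.6, 34.9 and 60.1% in HFD+APS, against 10.9, 15.6 and 7.22% in HFD and 62.1, 33.5 and 52.5% in chow. HFD lay below both other groups and was well above background on 1 of its 3 arrays, while HFD+APS and chow covered the same range. The log2 difference was 2.15 ± 0.34 for HFD+APS minus HFD and -2.15 ± 0.34 for HFD minus chow, both resting on 2 HFD signals that were not well above background. HFD+APS minus chow was -0.00 ± 0.34 (95% interval -0.79 to 0.78, adjusted p = 0.996). Of 17 other subunits of sodium and proton pumps 9 were tested and 0 passed in limma in any of the 3 comparisons, with 1, 2 and 1 at an unadjusted p under 0.05 in HFD+APS minus HFD, HFD minus chow and HFD+APS minus chow (in the first from -0.69 for Fxyd3 to 0.22 for Atp1b2). Atp1b1, a beta subunit, had -0.18 ± 0.13.

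Mmd2, the Golgi protein, read 1.98, 7.54 and 4.77% in HFD+APS, against 32.7, 22.7 and 57.6% in HFD and 34.7, 17.0 and 28.9% in chow. HFD and chow overlapped, and every HFD+APS array lay below both, with 1 of the 3 well above background. The log2 difference was -3.08 ± 0.53 for HFD+APS minus HFD and 0.44 ± 0.53 for HFD minus chow. Between HFD+APS and chow 2 of the 8 genes passed, 1 higher and 1 lower, beside 3.47% of all features (0.957% higher and 2.51% lower). Mmd2 was the lower one (log2 -2.63 ± 0.53, limma adjusted p = 0.0411), with 2 of its 3 HFD+APS signals not well above background. It lost this call without any 1 array other than HFD+APS 1 or HFD 3 (adjusted p up to 0.117), with slide as a random block (0.0755), quantile normalization (0.0602), the authors' table (0.0629) and dim probes kept (0.0707). Of 10 PAQR genes 8 were tested and 0 passed in limma in any comparison, with 3, 3 and 2 at an unadjusted p under 0.05 in the same order of comparisons. Mmd, the closest relative, read 1509, 1428 and 1419% in HFD+APS, against 1778, 1854 and 1895% in HFD and 1359, 1426 and 1667% in chow. HFD lay above both other groups, with a log2 difference of -0.34 ± 0.10 for HFD+APS minus HFD.

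Eif4ebp3, the translation inhibitor (probe on chromosome 18 from 36825278 to 36825337, mm9), read 5174, 4958 and 3464% in HFD+APS, against 1163, 1175 and 641% in HFD and 1879, 1566 and 1408% in chow. The 3 groups did not overlap, and the order was HFD+APS, chow and HFD, so that HFD+APS did not lie near chow as in the other genes that were low in HFD. The log2 difference was 2.22 ± 0.27 for HFD+APS minus HFD, or 4.67-fold, and -0.75 ± 0.27 for HFD minus chow, which did not pass. Eif4ebp3 passed as higher in HFD+APS than in chow (1.47 ± 0.27, 2.78-fold, limma adjusted p = 0.0323). The call was lost without HFD+APS 2, HFD+APS 3, HFD 2 or any chow array (adjusted p up to 0.120), with slide as a random block (0.0660) and with dim probes kept (0.0609). A second probe that shares 55 of its 60 bases gave 2.12 ± 0.30, -0.74 ± 0.30 and 1.38 ± 0.30 for HFD+APS minus HFD, HFD minus chow and HFD+APS minus chow. Sra1, which starts 863 bases away on chromosome 18, had 0.15 ± 0.11, 0.00 ± 0.11 and 0.15 ± 0.11 in the same 3 comparisons.

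The other 2 members of the eIF4E-binding family did not pass in any comparison. Eif4ebp1 read 3153, 3150 and 3255% in HFD+APS, against 2864, 2764 and 3449% in HFD and 2746, 2976 and 2521% in chow. Its difference of HFD+APS minus HFD was 0.08 ± 0.12, and that of Eif4ebp2 was 0.09 ± 0.12. All 25 listed genes of cap-dependent translation and mTORC1 were tested, and in HFD+APS minus HFD 0 passed in limma, with 4 at an unadjusted p under 0.05 (median 0.02, from -0.54 for Mlst8 to 0.60 for Tsc1). The single call of that list was Eif4e3, an eIF4E-like cap-binding protein, which rose in HFD relative to chow (1.24 ± 0.23, adjusted p = 0.0194) and lost its call without HFD 2, HFD 3, chow 1 or chow 3 (up to 0.0619).

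**Figure D3:**
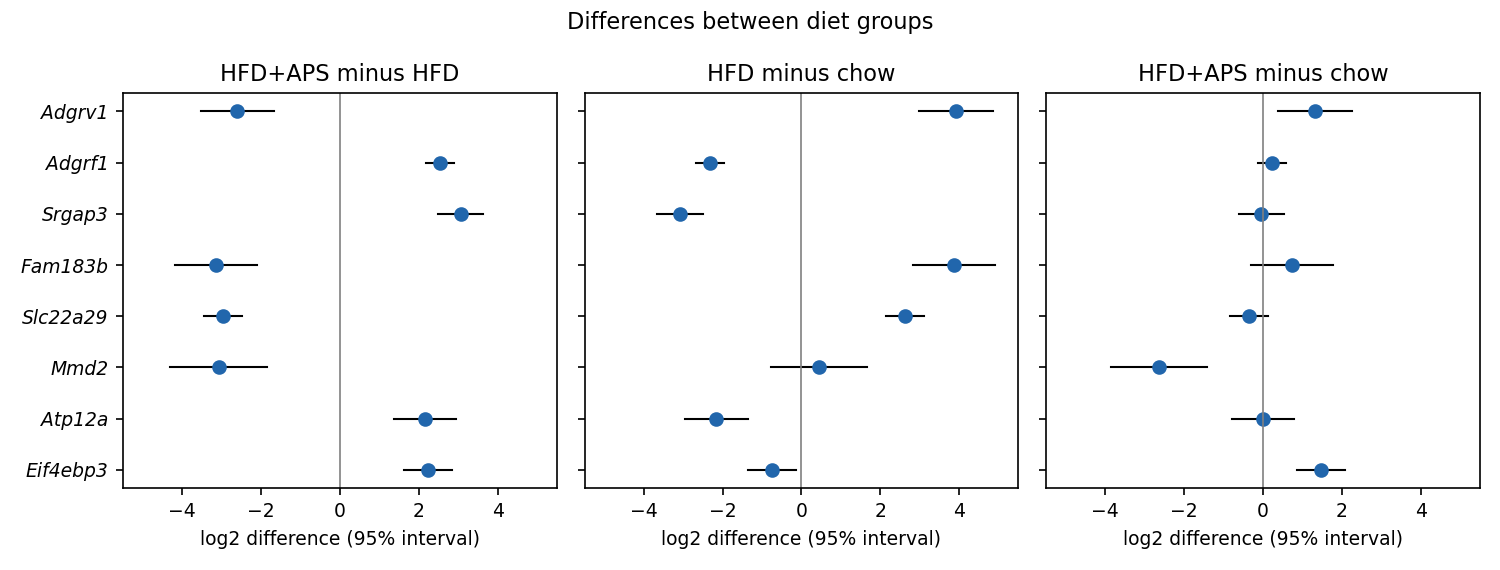
Log2 differences with 95% intervals of the 8 genes for HFD+APS minus HFD, HFD minus chow and HFD+APS minus chow. In the third comparison Adgrf1, Srgap3, Fam183b, Slc22a29 and Atp12a have intervals that include 0, Adgrv1 and Eif4ebp3 lie above 0 and Mmd2 lies below 0.

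HFD+APS and chow did not overlap for 4 of the 8 genes, Adgrv1 and Eif4ebp3 with HFD+APS higher and Slc22a29 and Mmd2 with HFD+APS lower. Over all features HFD+APS lay wholly above chow for 12.7% and wholly below it for 18.2%. Across the 8 lists of relatives, 53 of 162 entries were not tested. In HFD+APS minus HFD 2 of the others passed in limma as higher and 0 as lower, 28 had an unadjusted p under 0.05, and their median log2 difference was -0.06. In HFD minus chow 4 passed as higher and 10 as lower (median 0.04), and in HFD+APS minus chow 1 and 4 (median -0.04). The largest log2 difference among the tested relatives in HFD+APS minus HFD was -1.59, for Adgrf3. The 8 genes were chosen on that comparison, so their larger size beside relatives that were not chosen was fixed beforehand.

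**Figure D4:**
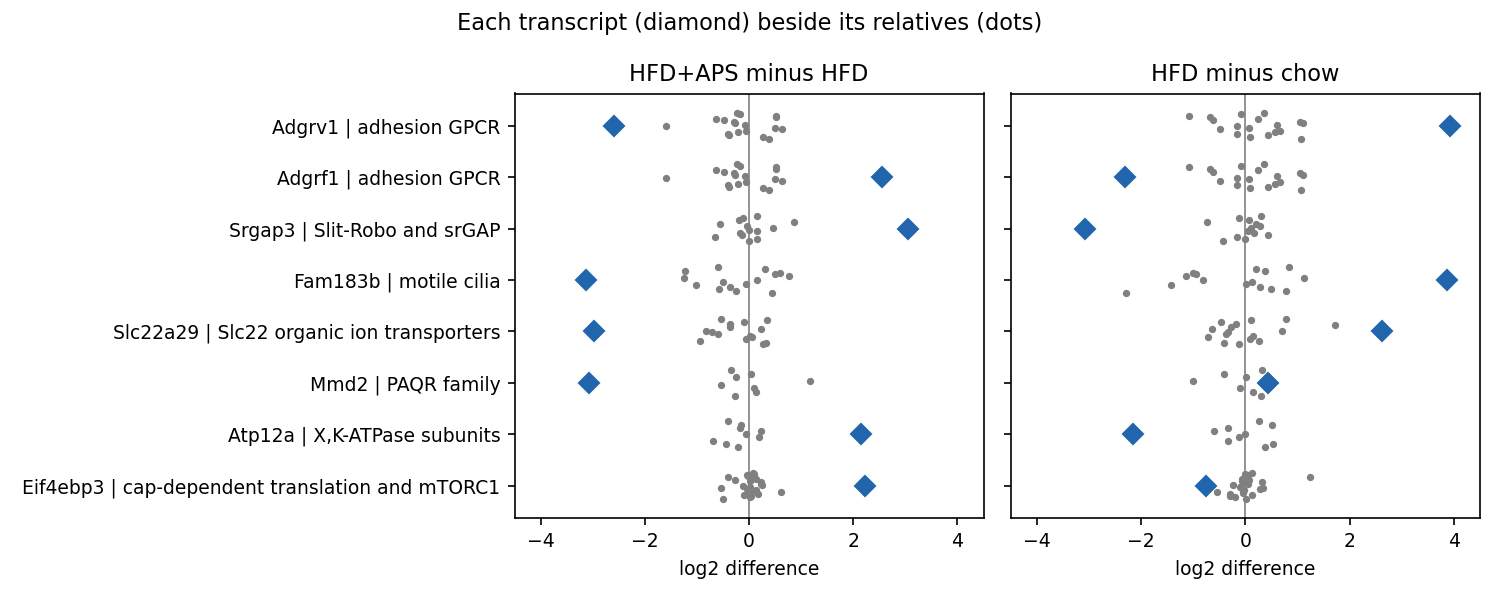
Log2 difference of each of the 8 genes (diamonds) beside the tested genes of its own family or pathway list (dots), for HFD+APS minus HFD on the left and HFD minus chow on the right. The 8 genes were chosen for these differences; the relatives lie between -1.59 and 1.17 for HFD+APS minus HFD.

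Over the 9 arrays the log2 values of the 8 genes correlated in size between 0.325 and 0.980 over the 28 pairs, all of genes chosen on the same contrasts. Around their group means the correlations were -0.727 to 0.728, and the points share 3 groups and 3 slides. The features whose pattern over the 9 arrays was most like each gene's were named by Pearson's r. For Adgrv1 these were Dhrs7 (0.990), Aaas (0.987) and Lect2 (0.985), a cytokine secreted by hepatocytes. For Slc22a29 they were Lgals1 (0.984), Uck1 (0.976) and Dhrs7b (0.975). Lgals1, a galectin, differed by -3.35 for HFD+APS minus HFD and by 2.99 for HFD minus chow, the range of Slc22a29 itself.

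Fam183b was most like Aktip (0.978), Pmm1 (0.974) and Anxa4 (0.972). Adgrf1 was most like Gm4285 (0.987) and Efl1 (0.980), beside a feature with no gene match (0.979), and Efl1 was also near Srgap3 (0.973), together with Luc7l2 (0.980) and Fam160b2 (0.971). Atp12a was most like Acd (0.980), Cbx5 (0.975) and Capn3 (0.969). Mmd2 was most like Cep83 (0.946), Hmgcs1 (0.932), the enzyme that starts the mevalonate route, and Clec2l (0.931). Eif4ebp3 was most like Gm10319 (0.980), Xpa (0.969) and B930025P03Rik (0.966). B930025P03Rik had differences of 2.33 for HFD+APS minus HFD, -0.71 for HFD minus chow and 1.62 for HFD+APS minus chow. All these values are over 9 arrays, and most of the features named have smaller differences than the gene they resemble (Luc7l2 0.42 for HFD+APS minus HFD, against 3.05 for Srgap3).

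The summed signal of cell type markers is given beside these values. Hepatocyte markers, 8 of 8 tested, summed to 177061 to 226458% of the upper quartile in HFD+APS, 155286 to 194804% in HFD and 205022 to 225191% in chow, so the tissue carries its label's markers in every group. Monocyte-derived macrophage markers (5 of 7 tested, Gpnmb and Mmp12 not) summed to 1151 to 2244% in HFD+APS, 2428 to 3113% in HFD and 1167 to 1193% in chow, with HFD highest, as for Adgrv1, Fam183b and Slc22a29. Ly6c2 made up most of that sum in HFD (1838, 818 and 1213% in HFD+APS, 2034, 2668 and 2352% in HFD, and 616, 655 and 619% in chow). Cd9 of the same list read 280, 249 and 217% in HFD+APS, 270, 211 and 472% in HFD, and 470, 494 and 509% in chow. Kupffer cell and macrophage markers (8 of 8 tested) summed to 4621 to 9860% in HFD+APS, 5953 to 9211% in HFD and 3623 to 5349% in chow. In the same order, endothelial markers (8 of 8) summed to 6431 to 7356%, 6035 to 7035% and 3256 to 5076%. Stellate cell markers (9 of 9) summed to 11216 to 13089%, 11708 to 13927% and 6902 to 12370.5%. HFD+APS and HFD overlapped for the hepatocyte, Kupffer cell and macrophage, endothelial and stellate cell sums, but not for the monocyte-derived macrophage sum. Adipocyte markers (2 of 6 tested) summed to 335 to 402% in HFD+APS, 861 to 2803% in HFD and 182 to 1079% in chow, while Adipoq, Lep, Retn and Plin1 were not detected on enough arrays to be tested. Neutrophil markers (3 of 6 tested) summed to 274 to 873% in HFD+APS, 446 to 4956% in HFD and 136 to 633% in chow. Only HFD 3 was high, with HFD 1 at 707% and HFD 2 at 446%. Cholangiocyte markers (8 of 9 tested), of cells that can bear cilia, summed to 663 to 762% in HFD+APS, 718 to 4787% in HFD, where 1 array was high through Spp1, and 682 to 713% in chow. Gut epithelium markers (3 of 7 tested, Vil1 and Cdx2 not) summed to 11541 to 12330% in HFD+APS, 9426 to 17279% in HFD and 6537 to 7638% in chow, nearly all from Fabp2. The part of these cells in the 8 genes' differences was not tested.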

How the data were processed

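Liver RNA of 9 mice was hybridised to 9 1-colour (Cy3) Agilent arrays. The deposited scanner files hold, per the file headers, intensity per spot from Feature Extraction 10.7.1.1, background-subtracted and detrended within each array, with small values replaced by surrogates. A deposited table of log2 values of the same arrays correlated at 0.997 or more with the log2 intensity, had medians from 4.98 to 5.00 and served as an alternative. Its normalization step is not given in the sources used here, though limma is named in the submitters' processing notes.

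Processed signals were read in R 4.3.3. Of 45018 spots per array 1639 were controls; spots marked non-uniform or population outliers were left out, the rest averaged to 41174 probes on the log2 scale, and scaled by subtracting the 75th percentile of each array. Probes well above background on at least 3 of 9 arrays entered (26504), and the brightest stood for each gene (17655 features, 5 values missing). Names came from RefSeq GRCm38.p6: 27668 probes by their own accession, 93 by another, 5531 by symbol, 460 by synonym, and 7422 kept the file's name. limma 3.58.1 (lmFit and eBayes) fitted the 3 groups over all arrays, with 6 residual and 2.21 prior degrees of freedom and a 2-sided threshold of 0.05 on the p adjusted over all features (Benjamini-Hochberg). The fit was tested on simulated data. "At least N-fold", used for Fam183b, sets the dim group to the higher of its own signal and a floor on each array. The floor is the lowest signal well above background of any probe. The fold compares group means and leaves out the spread between arrays. Depth of an array is its signal over background, and precision is limited by 3 arrays per group.

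The 8 genes and all lists were chosen with earlier results of these data known. Genes named are the 8 genes with every probe, up to 4 called relatives per list and comparison, 13 near relatives, the 3 features most like each gene, and measured neighbours. Genes at the ends of a list's range, Dnaic1 and the markers were named after their values were seen. Some genes that the rule would name are not reported here. Slides follow from the array barcodes. Arrays of the same replicate number did not deviate together (r of deviations -0.17 to 0.16 over 9 pairs), so the numbers do not pair them. Alternatives varied background correction, normalization, the filter on dim probes, the probe rule, flagged spots, array weights, slide and replicate blocks, and left out each array in turn.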

Additional observations from a re-analysis of the deposited data

How the results depend on the processing

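In HFD+APS minus HFD and in HFD minus chow, the 8 genes kept their direction under each alternative run, but not always their call. Of the 8 called in HFD+APS minus HFD, 5 were called when dim probes were kept and 2 when a probe had to be above background on every array, which left Adgrv1 and Eif4ebp3 tested, and 3 to 8 when 1 array was left out (3 without HFD+APS 2, 4 without HFD+APS 3 or HFD 1, 5 without HFD 3 or chow 3). Adgrf1, Srgap3 and Slc22a29 kept that call in each alternative that tested them. With slide as a fixed block, where HFD+APS 1 alone is set against the HFD arrays and assumed to vary like them, 7 were called, all but Atp12a. These counts describe the comparison that chose the genes. In HFD minus chow, which also chose the genes, 6 were called and 6 in every fit that left out 1 array, and 1 when a probe had to be above background on every array. Those counts too are a description and not a test. In HFD+APS minus chow, where 2 were called, 1 was called with quantile normalization, the authors' table or the strict filter, 0 with dim probes kept or with slide as a random block, and 0 to 3 when 1 array was left out. With replicate number as a block 4, 7 and 1 of the 8 were called in the 3 comparisons (Eif4ebp3 was added in HFD minus chow), and 82 and 297 features in HFD+APS minus HFD and HFD+APS minus chow. Among the relatives that block ended the calls of Slit1 and Rsph9 in HFD+APS minus HFD, Slit1 and Slc22a12 in HFD minus chow, and Slc22a7, Tekt4 and Lrrc23 in HFD+APS minus chow. Background correction with normexp added an offset of 50 signal units. That offset shrinks dim differences by construction (Adgrf1 0.95 and Mmd2 -1.04 for HFD+APS minus HFD), and calls lost with normexp include this effect.

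The HFD+APS minus chow differences of Srgap3 and Atp12a, both near 0, changed sign. Srgap3 gave 0.051 with normexp, 0.015 with quantile normalization, 0.016 with the authors' table, and -0.25 to 0.11 with 1 array left out (above 0 without HFD+APS 3, chow 1 or chow 3). Atp12a gave 0.026 with quantile normalization, 0.019 with the authors' table, 0.081 with array weights, and -0.26 to 0.22 with 1 array left out (above 0 without HFD+APS 2, chow 1 or chow 3). Counts over all features moved most: of 254 in HFD+APS minus HFD, 79 were called with dim probes kept, 1272 with array weights, 164 with slide as a random block and 51 to 582 with 1 array left out. Of 1930 in HFD minus chow the same settings gave 798, 3075, 685 and 367 to 2716, and of 613 in HFD+APS minus chow 224, 3177, 166 and 23 to 1608. The cause of these shifts was not tested, other than fewer arrays or features by construction. Signals near background, as for Fam183b outside HFD, allow bounds only.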

Other observations

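Genes with a known sex bias in mouse liver, a list not described above, were measured in the same male livers. Of 15 male-biased genes tested, 2 passed in limma as higher and 0 as lower in HFD+APS minus HFD (median log2 difference 0.87, 11 at an unadjusted p under 0.05), and 0 as higher and 5 as lower in HFD minus chow (median -0.84, 12 at an unadjusted p under 0.05). Of 14 female-biased genes 1 passed as higher and 3 as lower in HFD+APS minus HFD (median -0.36, 8 at an unadjusted p under 0.05). In HFD minus chow 6 of them passed as higher and 3 as lower (median 0.34, 10 at an unadjusted p under 0.05). These comparisons share the HFD arrays with each other and with those that chose the 8 genes. Over all features 0.447% passed as higher and 0.991% as lower in HFD+APS minus HFD, and 4.55% and 6.38% in HFD minus chow. The share of all features at an unadjusted p under 0.05 was not counted. A limma unadjusted p of 0.0222 had rank 3844 of 17655 in HFD minus chow.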
